A study of Mus musculus with 10 samples.

Results

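The genes described here are 10 components of insulin-like growth factor (IGF) signalling: the ligand Igf1, the receptors Igf1r, Igf2r and Insr, the receptor adaptors Irs1 and Irs2, and the binding proteins Igfbp2, Igfbp3, Igfbp4 and Igfbp5. They were taken from a list of names, and for each the probe set with the highest mean was used. All 10 were measured, among 19938 genes in all. Their RNA levels were read on 10 whole-transcript arrays from 5 kinds of mouse culture, with 2 replicates each. ESC were embryonic stem (ES) cells of the single line R1, kept on inactivated fibroblast feeders with 15% serum and 1000 U/ml of the cytokine Lif. pNSC_L were the first spheres of primitive neural stem cells, which came straight from ES cells in serum-free N2 medium with the same amount of Lif. pNSC_LF were replated from those spheres with Lif, FGF at 10 ng/ml and heparin at 2 μg/ml. dNSC were definitive neural stem cells, obtained by passaging primitive ones with N2, B27, 20 ng/ml of EGF, 20 ng/ml of FGF and 2 μg/ml of heparin. CNS_NSC, the comparison from the embryo, were grown from frontal brain of wild-type ICR mice at E11.5 with N2 and the same growth factors and heparin, so they differ from dNSC in strain, in origin and in the stated use of B27. As described, the 4 ES-derived groups all descend from 1 cell line. A shared line was not tested, and Hprt, given below, was low in ESC alone.

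IGF1 and its relative IGF2 act through IGF1R, a receptor tyrosine kinase that resembles the insulin receptor INSR and can pair with it. IRS1 and IRS2 dock on the active receptors and pass the signal to PI3 kinase and AKT. IGF2R carries no kinase: it takes up IGF2 and delivers mannose 6-phosphate tagged enzymes to lysosomes. Secreted binding proteins hold IGFs in the medium and at the cell surface and can either limit or prolong their action, and proteases such as PAPP-A release IGFs from some of them. In the developing brain IGF signalling supports growth and survival of neural progenitors. The N2 and B27 supplements contain insulin, which can act on these receptors.

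Values are log2 intensities as deposited, so 1 unit is a factor of 2, and levels are compared only within a gene. A difference is the first group minus the second, ± SE from limma, fitted over all 10 arrays with n = 2 arrays per group. The labels do not say whether replicates came from separate cultures or embryos, so p-values measure the spread between these arrays, which may be technical. A gene is said to rise or fall, or to be called, where its adjusted p over all genes was below 0.05. The median mean level of a gene was 8.10, and the lower quartile of all probe sets was 6.39 to 6.49 by array, so differences of dim genes are of uncertain size. Replicates were furthest apart in CNS_NSC, with 277 genes at least 2-fold different, and in pNSC_L, with 167. The other groups had 1 to 30 such genes. Hprt, a purine salvage gene, stood at 6.99 and 6.76 in ESC and at 10.45 or above on the other 8 arrays, so a difference in the cells beside that of culture cannot be told apart in comparisons with ESC. These are bulk samples, in which fewer cells of a type and less RNA per cell cannot be told apart.

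Most of the 10 genes changed at the step to dNSC. In dNSC against pNSC_LF 7 of the 10 rose and 0 fell, where 38.6% of all genes were called (19.3% higher and 19.3% lower). The rises were those of Igf1r, Insr, Irs1, Irs2, Igfbp3, Igfbp4 and Igfbp5, and the median difference of the 10 was 1.02, against -0.01 over all genes. Across the whole path, in dNSC against ESC, 8 rose and 1 fell, where 40.5% of all genes were called (20.7% higher and 19.9% lower). The earlier steps moved fewer. In pNSC_L against ESC, Igf1, Irs1 and Igfbp3 rose and Igfbp4 fell, 4 of 10 where 13.4% of all genes were called (6.56% higher and 6.79% lower). In pNSC_LF against pNSC_L 0 of 10 were called, where 1.78% of all genes were (1.1% higher and 0.677% lower). By limma 5 of the 10 had an unadjusted p below 0.05, where 2720 of all 19938 genes did. The nearest to a call was Igfbp3 (-0.58 ± 0.12, adjusted p = 0.051). In dNSC against CNS_NSC, Igf2r and Igfbp5 were higher in dNSC and 5 genes lower: Insr, Irs1, Igfbp2, Igfbp3 and Igfbp4. That is 7 of 10 called, where 34.0% of all genes were (17.6% higher and 16.5% lower). These comparisons share arrays: dNSC enters 3 of them and ESC 2.

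**Figure D1:**
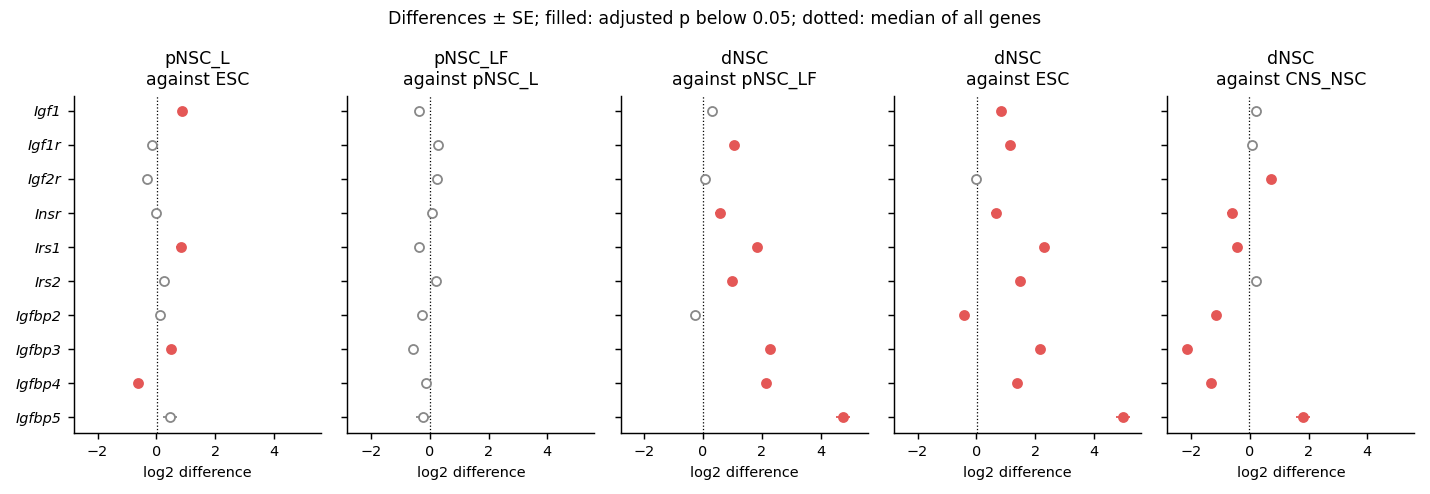
Log2 difference ± SE (x axis) of the 10 genes (rows) in 5 comparisons (panels), with filled points for adjusted p below 0.05 and a dotted line at the median of all genes. Igfbp5 reaches 4.76 in dNSC against pNSC_LF, and in dNSC against CNS_NSC Igfbp2, Igfbp3 and Igfbp4 lie below 0 while Igfbp5 lies above it.

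Among the receptors Igf1r, the main signalling receptor for IGF1 and IGF2, split the cultures into a low and a high set. It read 9.42 and 9.46 in ESC, 9.19 and 9.35 in pNSC_L, 9.59 and 9.51 in pNSC_LF, 10.64 and 10.53 in dNSC, and 10.57 and 10.43 in CNS_NSC. Every array of dNSC and CNS_NSC lay above every array of the other groups. The rise in dNSC against pNSC_LF was 2.05-fold (1.04 ± 0.11, adjusted p = 3.3e-05), while dNSC and CNS_NSC overlapped (0.08 ± 0.11, adjusted p = 0.63). Neither earlier step gave a call, with -0.16 ± 0.11 in pNSC_L against ESC and 0.27 ± 0.11 in pNSC_LF against pNSC_L.

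Insr, the insulin receptor, rose less at the same step. It read 9.61 and 9.48 in ESC, 9.40 and 9.70 in pNSC_L, 9.71 and 9.58 in pNSC_LF, 10.20 and 10.20 in dNSC, and 11.04 and 10.59 in CNS_NSC. The 3 Lif cultures overlapped, dNSC stood above them and CNS_NSC above dNSC. Insr rose 1.48-fold in dNSC against pNSC_LF (0.56 ± 0.16, adjusted p = 0.016) and was lower in dNSC than in CNS_NSC (-0.61 ± 0.16, adjusted p = 0.012). The call of Insr in dNSC against pNSC_LF did not survive leaving out pNSC_LF replicate 2 (0.50, adjusted p = 0.10) or either dNSC replicate (adjusted p = 0.076 each). In dNSC against CNS_NSC it was lost without dNSC replicate 1 or 2 (-0.61 each, adjusted p = 0.066 and 0.065) and without CNS_NSC replicate 1 (-0.39, adjusted p = 0.085). A second, dimmer Insr probe set had the same order, with 9.29 and 9.17 in dNSC, against 9.97 and 9.60 in CNS_NSC and 8.29 to 8.61 in the Lif cultures.

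Igf2r, the clearance receptor for IGF2, showed the narrowest span of group means of the 10, 0.73. It read 10.66 and 10.70 in ESC, 10.45 and 10.26 in pNSC_L, 10.58 and 10.64 in pNSC_LF, 10.68 and 10.65 in dNSC, and 9.79 and 10.10 in CNS_NSC. CNS_NSC was the low group, and the ES-derived groups differed by at most 0.32. No step from ESC to dNSC gave a call, and dNSC against ESC came to -0.01 ± 0.12 (adjusted p = 0.94). Igf2r was 1.65-fold higher in dNSC than in CNS_NSC (0.72 ± 0.12, adjusted p = 0.0012).

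**Figure D2:**
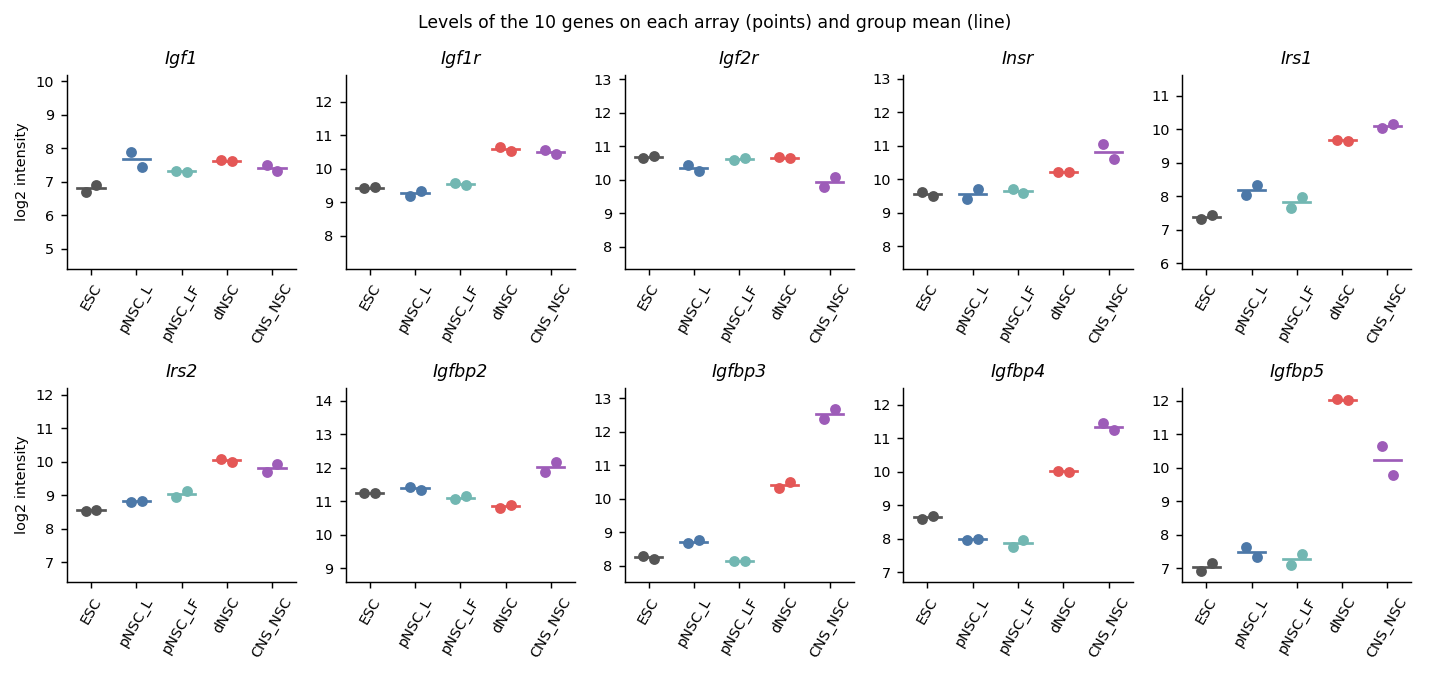
Log2 intensity (y axis, same height of scale in every panel) of each of the 10 genes on each of 10 arrays, by group, with lines at the group means. Igfbp3, Igfbp4, Igfbp5 and Irs1 lie higher on every dNSC and CNS_NSC array than on any array of the Lif cultures. Igfbp5 alone of these 4 is higher in dNSC than in CNS_NSC. Igf1r, Insr and Irs2 also lie higher on every dNSC and CNS_NSC array than in the Lif cultures.

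Both adaptors rose, as Igf1r and Insr did, at the step to dNSC. Irs1 read 7.32 and 7.43 in ESC, 8.05 and 8.33 in pNSC_L, 7.64 and 7.99 in pNSC_LF, 9.68 and 9.66 in dNSC, and 10.05 and 10.15 in CNS_NSC. It moved at both ends of the path: it was 1.76-fold higher in pNSC_L than in ESC (0.82 ± 0.14, adjusted p = 0.0044) and 3.61-fold higher in dNSC than in pNSC_LF (1.85 ± 0.14, adjusted p = 3.8e-06). Its level in dNSC was below that in CNS_NSC (-0.43 ± 0.14, adjusted p = 0.038), a call that was lost whichever of the 4 arrays was left out (adjusted p from 0.066 to 0.15). A second Irs1 probe set was dim on every array, between 5.73 and 6.55. It was not higher in dNSC (6.07 and 5.98) than in pNSC_LF (6.10 and 6.12). The average of the 2 probe sets rose by 0.88 in dNSC against pNSC_LF, a rise that comes from the first alone. In pNSC_L against ESC the average rose by 0.53 and in dNSC against ESC by 1.23.

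Irs2, a close relative of Irs1, was highest in dNSC. It read 8.54 and 8.57 in ESC, 8.81 and 8.82 in pNSC_L, 8.94 and 9.14 in pNSC_LF, 10.07 and 10.0 in dNSC, and 9.70 and 9.93 in CNS_NSC. No group of the ES-derived path overlapped the one before it, but only the last of the 3 steps was called. That step was 1.99-fold (0.99 ± 0.11, adjusted p = 7.2e-05), and dNSC against ESC came to 1.48 ± 0.11 (adjusted p = 4.7e-06). In dNSC against CNS_NSC the difference was 0.22 ± 0.11 (adjusted p = 0.18).

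Igf1, the ligand, was dim throughout. It read 6.70 and 6.90 in ESC, 7.90 and 7.44 in pNSC_L, 7.33 and 7.30 in pNSC_LF, 7.66 and 7.61 in dNSC, and 7.50 and 7.31 in CNS_NSC. All 10 values lie below the median gene level of 8.10, and ESC was the low group. Igf1 was 1.83-fold higher in pNSC_L than in ESC (0.87 ± 0.15, adjusted p = 0.0047), a call lost without ESC replicate 1 (0.76, adjusted p = 0.052), and it was higher in dNSC than in ESC (0.84 ± 0.15, adjusted p = 0.0013). The pNSC_L arrays themselves were 0.46 apart. dNSC and CNS_NSC differed by 0.23 ± 0.15 (adjusted p = 0.30).

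Of the binding proteins Igfbp3, Igfbp4 and Igfbp5 had the widest spans of group means among the 10 genes (4.38, 3.48 and 4.99), and Igfbp2 spanned 1.16. Igfbp5, a binding protein that also attaches to extracellular matrix, read 6.93 and 7.15 in ESC, 7.64 and 7.35 in pNSC_L, 7.11 and 7.43 in pNSC_LF, 12.05 and 12.02 in dNSC, and 10.66 and 9.80 in CNS_NSC. The 3 Lif cultures lay within 0.71 of each other, and dNSC stood above all other arrays. The rise in dNSC against pNSC_LF was 27.1-fold (4.76 ± 0.24, adjusted p = 2.7e-07), the 8th highest difference among 19938 genes. Igfbp5 was 3.49-fold higher in dNSC than in CNS_NSC (1.80 ± 0.24, adjusted p = 0.00023), whose arrays were 0.87 apart, and the difference was 1.37 without CNS_NSC replicate 2 and 2.24 without replicate 1. Both values remained calls.

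Igfbp3, the main carrier of IGFs in serum, read 8.29 and 8.20 in ESC, 8.67 and 8.78 in pNSC_L, 8.14 and 8.15 in pNSC_LF, 10.32 and 10.49 in dNSC, and 12.37 and 12.68 in CNS_NSC. dNSC lay between the Lif cultures and CNS_NSC, apart from each. Igfbp3 rose 4.79-fold in dNSC against pNSC_LF (2.26 ± 0.12, adjusted p = 4.5e-07) and was 4.34-fold lower in dNSC than in CNS_NSC (-2.12 ± 0.12, adjusted p = 6.9e-07). The small rise in pNSC_L against ESC (0.48 ± 0.12, adjusted p = 0.031) was lost whichever of the 4 arrays was left out (adjusted p from 0.050 to 0.17) and with only these 2 groups fitted (adjusted p = 0.073). In pNSC_LF against pNSC_L the difference was -0.58 ± 0.12, which became a call under 4 of the alternative settings given in the closing section (adjusted p from 0.034 to 0.050, the last below 0.05 before rounding).

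Igfbp4, a binding protein cleaved by PAPP-A, dipped before it rose. It read 8.58 and 8.68 in ESC, 7.97 and 8.0 in pNSC_L, 7.75 and 7.97 in pNSC_LF, 10.03 and 9.99 in dNSC, and 11.45 and 11.23 in CNS_NSC. Every primitive culture lay below ESC, and dNSC and CNS_NSC lay above it. The fall in pNSC_L against ESC was -0.64 ± 0.12 (adjusted p = 0.0060), a call lost without ESC replicate 2 (-0.59, adjusted p = 0.058). The rise in dNSC against pNSC_LF was 4.43-fold (2.15 ± 0.12, adjusted p = 4.5e-07), and Igfbp4 was 2.51-fold lower in dNSC than in CNS_NSC (-1.33 ± 0.12, adjusted p = 1.3e-05).

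Igfbp2, a binding protein abundant in the embryonic brain, did not follow the other 3. It read 11.26 and 11.26 in ESC, 11.41 and 11.35 in pNSC_L, 11.08 and 11.15 in pNSC_LF, 10.81 and 10.89 in dNSC, and 11.86 and 12.16 in CNS_NSC. dNSC was the lowest group and CNS_NSC the highest. No single step from ESC to dNSC was called, but Igfbp2 was lower in dNSC than in ESC (-0.41 ± 0.12, adjusted p = 0.016), a call lost whichever of the 4 arrays was left out (adjusted p from 0.053 to 0.11). It was 2.24-fold lower in dNSC than in CNS_NSC (-1.16 ± 0.12, adjusted p = 3.1e-05).

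The upstream sequences of the 3 binding protein genes that rose and of Igf1r are shown because all 4 genes rose at the step to dNSC. They were chosen after the values were seen. Each is the 250 bases before the annotated start, 5′ to 3′ on the gene's strand, from RefSeq in build GRCm38.p6. Capitals mark GGGCGG, the GC box bound by SP1, or TATAAA, a core promoter element, searched on both strands.
Igfbp3 (chr11:7213924-7214173, - strand): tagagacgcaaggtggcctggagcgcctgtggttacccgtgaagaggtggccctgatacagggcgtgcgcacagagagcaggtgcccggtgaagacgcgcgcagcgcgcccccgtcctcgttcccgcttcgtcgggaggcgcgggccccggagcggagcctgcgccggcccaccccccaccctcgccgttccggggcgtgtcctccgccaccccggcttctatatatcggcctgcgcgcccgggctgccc
Igfbp4 (chr11:99040994-99041243, + strand): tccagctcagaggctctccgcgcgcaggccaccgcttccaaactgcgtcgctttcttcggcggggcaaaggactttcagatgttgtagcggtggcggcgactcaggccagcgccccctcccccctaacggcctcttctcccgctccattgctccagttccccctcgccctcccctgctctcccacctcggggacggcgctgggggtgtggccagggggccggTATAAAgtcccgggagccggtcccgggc
Igfbp5 (chr1:72874866-72875115, - strand): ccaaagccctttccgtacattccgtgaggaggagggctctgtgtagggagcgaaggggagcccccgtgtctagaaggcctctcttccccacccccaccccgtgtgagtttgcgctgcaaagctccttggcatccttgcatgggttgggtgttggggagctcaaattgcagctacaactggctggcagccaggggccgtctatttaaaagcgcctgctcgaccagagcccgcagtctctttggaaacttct
Igf1r (chr7:67952007-67952256, + strand): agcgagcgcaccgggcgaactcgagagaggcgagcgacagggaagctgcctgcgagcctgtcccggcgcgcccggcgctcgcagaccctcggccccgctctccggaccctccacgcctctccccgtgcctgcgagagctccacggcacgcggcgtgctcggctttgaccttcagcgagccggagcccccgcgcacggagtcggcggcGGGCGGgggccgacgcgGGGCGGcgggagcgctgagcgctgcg
Igfbp4 holds TATAAA beginning 28 bases before its start, and Igf1r holds GGGCGG beginning 43 and 26 bases before its start. Igfbp3 and Igfbp5 hold neither. Of the 32851 windows of the same length in the table, 32.7% hold GGGCGG and 12.4% hold TATAAA. The GGGCGG hexamer also occurs before Igf2r, Irs1, Irs2 and, in 1 of its 2 windows, Igfbp2, but not before Igf1, and 9 of the 10 genes have a window in the table. GTAAACA, the core bound by FOXO factors, which insulin and IGF signalling restrain, is found in 3.17% of all windows and in none of these genes' windows, also searched on both strands. These are matches of letters only.

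Ordered by level, neighbouring groups were often not apart. Each of the 10 genes gives 4 neighbouring pairs, and 17 of these 40 pairs were called. The share of all genes called over the 10 possible pairs of groups ran from 1.78% to 43.8%. For the pairs not compared above it was 15.3% in pNSC_LF against ESC and 39.9% in dNSC against pNSC_L. It was 43.8% in CNS_NSC against ESC, 43.6% in CNS_NSC against pNSC_L and 41.9% in CNS_NSC against pNSC_LF. These shares are for fixed pairs, whereas neighbours were set by each gene's own means. A share of neighbouring pairs was not computed for all genes, so the 17 have no like background. For Igfbp3 the order was pNSC_LF, ESC, pNSC_L, dNSC and CNS_NSC from low to high, and only pNSC_LF and ESC were not apart. For Igfbp4 it was pNSC_LF, pNSC_L, ESC, dNSC and CNS_NSC, again with only the lowest pair not apart. Igfbp5 ran from ESC through pNSC_LF, pNSC_L and CNS_NSC to dNSC, with both upper gaps called. Irs1 ran ESC, pNSC_LF, pNSC_L, dNSC and CNS_NSC, also with both upper gaps called, and Insr ran ESC, pNSC_L, pNSC_LF, dNSC and CNS_NSC with the same 2 called. For Igf1r (pNSC_L, ESC, pNSC_LF, CNS_NSC, dNSC) and Irs2 (ESC, pNSC_L, pNSC_LF, CNS_NSC, dNSC) only the gap below CNS_NSC was called. For Igf2r (CNS_NSC, pNSC_L, pNSC_LF, dNSC, ESC) and Igf1 (ESC, pNSC_LF, CNS_NSC, dNSC, pNSC_L) it was only the lowest gap, and for Igfbp2 (dNSC, pNSC_LF, ESC, pNSC_L, CNS_NSC) only the highest.

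**Figure D3:**
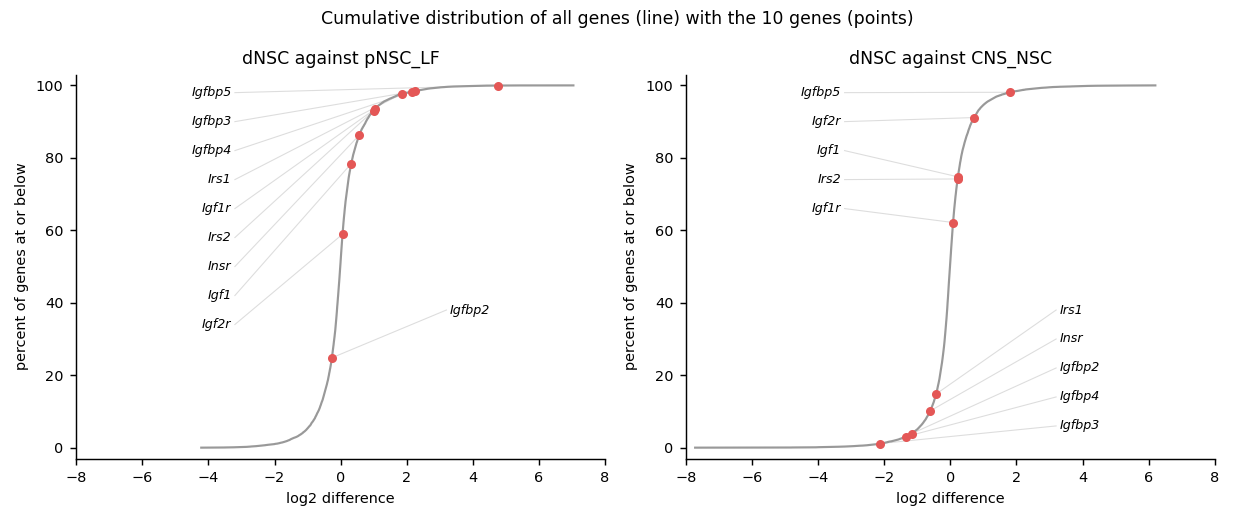
Cumulative share of all 19938 genes (y axis, percent) by log2 difference (x axis) in dNSC against pNSC_LF and in dNSC against CNS_NSC, with points for the 10 genes. Igfbp5 lies at the upper end in each panel, and Igfbp3 and Igfbp4 change from the upper end in the first to the lower end in the second.

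Of 47 measured genes around these 10 in the pathway, 17 rose and 8 fell in dNSC against pNSC_LF, with a median difference of 0.12 against -0.01 over all genes. That is 53.2% called, where 38.6% of all genes were. In pNSC_L against ESC 4 rose and 4 fell (17.0%, where 13.4% of all genes were called), in pNSC_LF against pNSC_L 2 rose (Stc2 by 0.59 ± 0.10 and Grb10 by 0.82 ± 0.15, neither called with only these 2 groups fitted) and 0 fell (4.26%, where 1.78% were). In dNSC against ESC 17 rose and 7 fell (51.1%, where 40.5% were), and in dNSC against CNS_NSC 16 were higher and 13 lower (61.7%, where 34.0% were). The ligand Igf2 was high only in dNSC among the groups, with 12.31 and 12.21 in dNSC, against 8.17 and 8.21 in CNS_NSC and 8.11 to 8.37 in ESC and the primitive cultures. It was 16.8-fold higher in dNSC than in CNS_NSC (4.07 ± 0.11, adjusted p = 6.5e-09). Ins2, an insulin gene, was dim and was not called in any of the 5 comparisons.

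Genes that act on the binding proteins were called at the step to dNSC. Pappa, the protease PAPP-A that cleaves IGFBP4, read 10.11 and 10.41 in dNSC, against 6.65 and 6.78 in CNS_NSC and 6.29 to 7.07 in ESC and the primitive cultures. It was 11.7-fold higher in dNSC than in CNS_NSC (3.54 ± 0.14, adjusted p = 6.7e-08) and 12.3-fold higher in dNSC than in pNSC_LF (3.63 ± 0.14, adjusted p = 6.8e-08). Stc2, stanniocalcin 2, an inhibitor of PAPP-A, was high in the same group. It read 11.44 and 11.34 in dNSC, against 9.19 and 9.14 in CNS_NSC, and rose by 2.05 ± 0.10 in dNSC against pNSC_LF. Stc1, its relative, fell in pNSC_L against ESC (-1.51 ± 0.12) and rose in dNSC against pNSC_LF (1.56 ± 0.12). Unlike Stc2 it was lower in dNSC than in CNS_NSC (-1.06 ± 0.12, adjusted p = 8.5e-05), and dNSC against ESC came to -0.14 ± 0.12 (adjusted p = 0.42). Pappa2, a protease related to Pappa, rose by 0.76 ± 0.13 in dNSC against pNSC_LF. Htra1, a serine protease that can cleave IGFBP5, moved the opposite way to Igfbp5: it read 6.46 and 7.17 in dNSC, against 10.05 and 10.12 in pNSC_LF (-3.28 ± 0.21, adjusted p = 1.4e-06). All 5 measured genes of this list were called in dNSC against pNSC_LF, 4 of them higher, where 38.6% of all genes were called (19.3% higher).

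Of 5 other binding protein genes measured, 1 rose and 1 fell in dNSC against pNSC_LF (40%, near the 38.6% of all genes). Igfbpl1, an IGFBP-like gene of the developing nervous system, rose by 1.14 ± 0.14, and Igfals, which encodes the acid-labile subunit of the serum IGF complex, fell by 0.51 ± 0.13, a call lost without pNSC_LF replicate 1 (-0.30, adjusted p = 0.12) or either dNSC replicate (adjusted p up to 0.073). Igfbp7 fell in dNSC against ESC (-0.57 ± 0.16), a call lost whichever of the 4 arrays was left out (adjusted p up to 0.086).

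Inside the cell, the adaptor list had 4 of 9 genes higher and 1 lower in dNSC against pNSC_LF (55.6% called, where 38.6% of all genes were). Irs4, a further IRS adaptor, read 9.70 and 9.31 in dNSC, against 6.84 and 7.06 in CNS_NSC and 6.70 to 7.07 in ESC and the primitive cultures. In contrast to Irs1 it was therefore higher in dNSC than in CNS_NSC (2.56 ± 0.15, adjusted p = 5.9e-07). Grb10, an imprinted adaptor that restrains both IGF1R and INSR, fell in pNSC_L against ESC (-0.78 ± 0.15), rose in dNSC against pNSC_LF (1.59 ± 0.15) and was 6.94-fold higher in dNSC than in CNS_NSC (2.80 ± 0.15, adjusted p = 3.2e-07). Its call in pNSC_L against ESC was lost without ESC replicate 2 (-0.68, adjusted p = 0.067). Gab1, a docking protein, fell in dNSC against ESC (-1.55 ± 0.16).

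**Figure D4:**
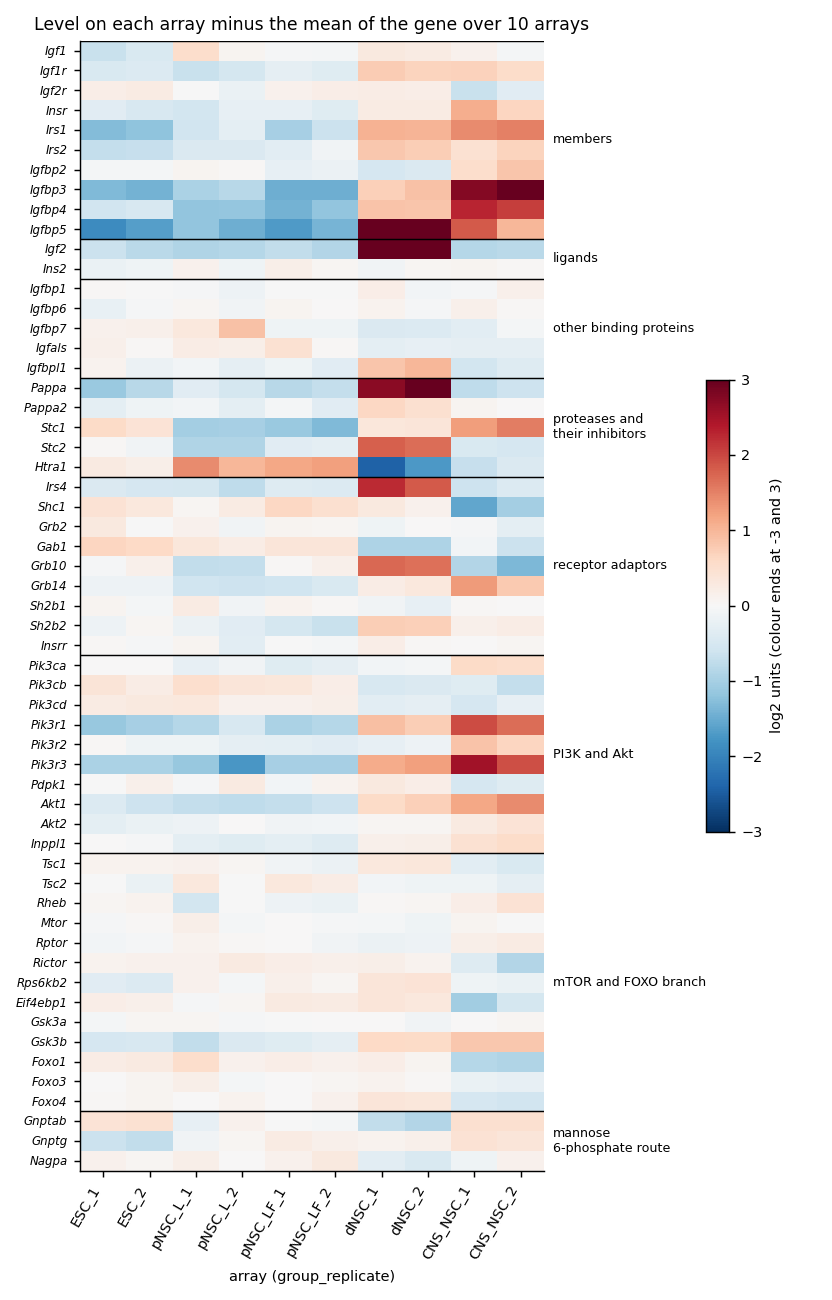
Level of the 10 genes (top) and 47 further pathway genes (rows, by list) on each of 10 arrays (columns, group and replicate), as the log2 level minus that gene's mean over all arrays, with colour ending at -3 and 3. Igf2, Pappa, Stc2 and Irs4 are high in dNSC only, whereas Pik3r1, Pik3r3 and Akt1 are higher still in CNS_NSC than in dNSC.

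Of 10 PI3K and Akt genes, 4 rose and 2 fell in dNSC against pNSC_LF (60%, where 38.6% of all genes were called), and 1 was higher and 6 lower in dNSC than in CNS_NSC (70.0%, where 34.0% were). The regulatory subunit genes Pik3r1 and Pik3r3 rose by 1.73 ± 0.15 and 2.17 ± 0.21 in dNSC against pNSC_LF, and Akt1 by 1.31 ± 0.12. All 3 of these were lower in dNSC than in CNS_NSC, Pik3r1 by -1.0 ± 0.15 and Pik3r3 by -1.06 ± 0.21 (adjusted p = 0.00051 and 0.0029). Of 13 genes of the mTOR and FOXO branch, 3 rose and 1 fell in dNSC against pNSC_LF (30.8%, below the 38.6% of all genes). Gsk3b, a kinase that AKT inhibits, rose by 0.90 ± 0.11, and Foxo1, a transcription factor that AKT keeps out of the nucleus, was higher in dNSC than in CNS_NSC (1.03 ± 0.13, adjusted p = 0.00017). Of 3 genes of the mannose 6-phosphate route, 0 rose and 2 fell in dNSC against pNSC_LF (66.7%, where 38.6% of all genes were called). Gnptab, part of the enzyme that makes the tag which IGF2R binds, fell by 0.77 ± 0.13 there. Gnptg, its partner subunit, was not called at that step (-0.07 ± 0.10). In pNSC_L against ESC Gnptg rose by 0.66 ± 0.10. Gnptab fell there too (-0.49 ± 0.13), a call lost with only these 2 groups fitted.

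Markers of several cell types moved in the same comparisons. The mean log2 level of 8 ES cell markers was 10.10 and 10.05 in dNSC, against 7.07 and 7.12 in CNS_NSC and 12.43 to 12.64 in ESC and the primitive cultures. The mean of 8 neural stem cell markers was 10.89 and 10.90 in dNSC, against 11.64 and 11.63 in CNS_NSC and 8.0 to 8.20 in the Lif cultures. In dNSC against CNS_NSC 7 of the 8 ES cell markers were higher (87.5%, where 34.0% of all genes were called), and Klf4 was not called (-0.22 ± 0.10). Of the neural stem cell markers 2 were higher there, Msi1 (1.92 ± 0.16) and Cdh2 (0.51 ± 0.12). Another 4 were lower, Olig2 the most (-4.33 ± 0.13), so 75% were called. The mean of the neural stem cell markers in pNSC_L and pNSC_LF was near that in ESC. Single markers moved under that mean: in pNSC_L against ESC Pax6 fell (-1.40 ± 0.12), and Slc1a3 and Fabp7 rose (0.90 ± 0.10 and 0.74 ± 0.15).

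Fibroblasts, which express several Igfbp genes and served as feeders for ESC, were followed with 14 markers. Of these 9 rose and 1 fell in dNSC against pNSC_LF (71.4% called, where 38.6% of all genes were). In dNSC against CNS_NSC 9 were higher and 2 lower (78.6%, where 34.0% of all genes were called). The 2 lower were Prrx1 (-1.03 ± 0.24) and Thy1 (-0.58 ± 0.17). The mean of the 14 ran from 8.35 to 8.41 in dNSC, against 7.68 to 7.81 in CNS_NSC and 7.46 to 7.48 in pNSC_LF. It ran from 7.80 to 7.93 in pNSC_L and 7.35 to 7.43 in ESC. The mean was thus highest in dNSC and lowest in ESC. The endoderm, neuron and endothelial cell means, given below, were also highest in dNSC. In pNSC_L against ESC, where Igf1, Irs1 and Igfbp3 rose and Igfbp4 fell, 4 of the 14 rose and 1 fell (35.7%, where 13.4% of all genes were called). Dcn, the matrix protein decorin, stood at 8.79 and 10.41 in pNSC_L, against 6.06 and 6.48 in ESC. In dNSC against pNSC_LF the 9 that rose were Prrx1 (2.48 ± 0.24), Dcn (2.28 ± 0.40, to 9.54 on both dNSC arrays), Postn (1.88 ± 0.20), Pdgfrb, Twist1, Lum, Col3a1, Col1a2 and Loxl1 (0.46 to 1.04), and Thy1 fell (-0.68 ± 0.17). Lum stayed below the lower quartile of all probe sets in every group. Dcn lay below it in ESC and CNS_NSC, and Postn in ESC, pNSC_LF and CNS_NSC. Col1a1 was not called in any of the 5 comparisons. Of 10 primitive and visceral endoderm markers 5 rose and 1 fell in dNSC against pNSC_LF (60%, where 38.6% of all genes were called). The endoderm means were 8.69 and 8.69 in dNSC, against 7.52 and 7.48 in CNS_NSC and 8.04 and 8.05 in pNSC_LF. They were 8.08 and 8.23 in pNSC_L and 7.57 and 7.69 in ESC. The part of these cell types in the Igfbp results was not tested.

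Of 8 neuron markers 7 rose and 1, Stmn2, fell in dNSC against pNSC_LF, where 38.6% of all genes were called. Neuron marker means were 9.39 and 9.35 in dNSC, against 9.09 and 8.49 in CNS_NSC and 8.01 to 8.36 in the Lif cultures. In dNSC against CNS_NSC 4 were higher and 2 lower, where 34.0% of all genes were called. The 2 were Map2 (-2.08 ± 0.12) and Syt1 (-2.85 ± 0.23). The largest difference there was that of Stmn2 (4.93 ± 0.15), which weighs on the mean. Stmn2 averaged 11.41 in dNSC, 6.49 in CNS_NSC and 12.36 in ESC. Of 6 endothelial cell markers 4 rose and 2 fell in dNSC against pNSC_LF, where 38.6% of all genes were called. All 6 were higher in dNSC than in CNS_NSC, where 17.6% of all genes were called higher. Endothelial marker means were 8.37 and 8.40 in dNSC, against 7.03 and 7.13 in CNS_NSC. None of 6 microglia markers was called in any of the 5 comparisons by limma, where 1.78% to 40.5% of all genes were. At an unadjusted p below 0.05 in limma, 1 passed in dNSC against pNSC_LF, where 9040 of 19938 genes did. In each of the others 0 passed. Microglia marker means ran from 6.70 to 6.98. The part of neurons and endothelial cells was not tested either.

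**Figure D5:**
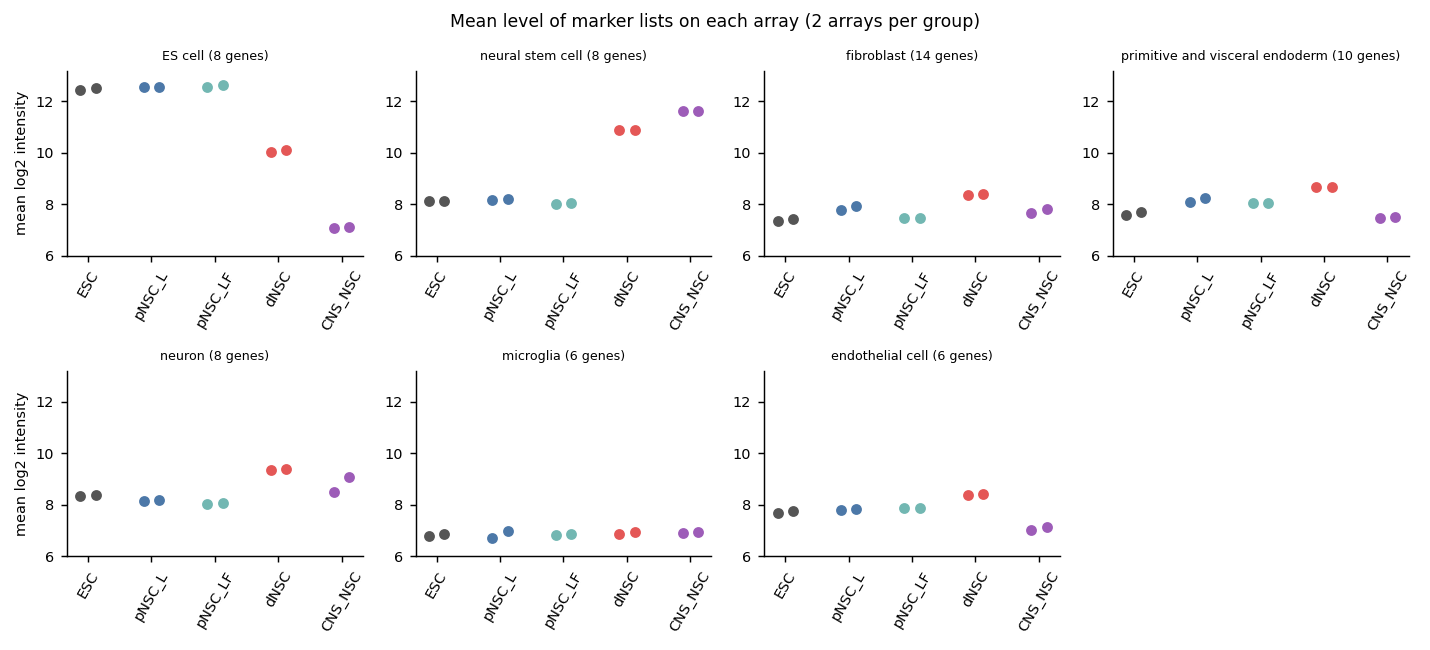
Mean log2 intensity (y axis) of 7 lists of cell type markers on each array, by group, with the 2 arrays of a group drawn low to high. The fibroblast, endoderm and endothelial cell means are highest in dNSC, and the neural stem cell mean is highest in CNS_NSC.

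The genes closest in pattern to each member were found by Pearson's r over the 10 arrays. These arrays fall into 5 pairs of replicates and share their group structure. The search covered 5007 genes with group means at least 1 unit apart and the highest group mean at or above the median gene level. Other members and genes with predicted names were left out. Igfbp5 was closest to Timp3, an inhibitor of matrix metalloproteinases (r = 0.997), Cdh6, a cadherin (r = 0.996), and Dbn1, the actin-binding protein drebrin (r = 0.993). Timp3 read 11.31 and 11.23 in dNSC, against 10.55 and 9.73 in CNS_NSC and 7.77 to 8.20 in the Lif cultures, which has the same order of dNSC and CNS_NSC and the same higher CNS_NSC replicate as Igfbp5. Igfbp3 was closest to the transcription factor gene Zeb1 (r = 0.996), and to Sema6d and Crat (r = 0.995 each). Igfbp4 was closest to Clip2 (r = 0.996), Wipf1 (r = 0.995) and the neuronal microtubule gene Map2 (r = 0.994).

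For the receptors and adaptors the closest genes were Eif1b for Igf1r (r = 0.996), Ank for Insr (r = 0.991), Hp1bp3 for Irs1 (r = 0.994) and Phldb2 for Irs2 (r = 0.992). Meis1, a homeobox transcription factor gene, was also near Irs1 (r = 0.991), and App, the amyloid precursor protein gene, near Irs2 (r = 0.984). Igfbp2, whose lowest group is dNSC, was closest to Polh (r = 0.987) and Fdps, a cholesterol synthesis enzyme gene (r = 0.981). Igf1 and Igf2r had group means less than 1 unit apart and were not matched.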

How the data were processed

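Per the labels, Trizol RNA was labelled with a whole-transcript kit (Ambion) for Affymetrix arrays. The authors deposited 1 log2 intensity per probe set and array (35556 probe sets); RMA and Partek are named in the submitters' processing notes, without versions, and RMA compresses differences of dim probe sets. That the logs are to base 2 was inferred from their range. The authors' build is not stated in the labels, and hybridisation batches were not analysed. Probe sets with 1 gene symbol in the platform annotation (21789) were used, 1621 with several and 12146 with none were not, and the probe set of highest mean stood for each gene. One mean per group was fitted over 10 arrays with limma 3.58.1 in R 4.3.3 (5 residual and 4.9 prior degrees of freedom), after a test on simulated data, and p-values were adjusted by Benjamini-Hochberg over 19938 genes per comparison. Tables and plots used Python 3.11.15, pandas 2.3.3 and matplotlib 3.10.9.

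Members and lists were chosen with earlier results of these data known. Of 52 pathway genes listed 47 were measured, and all 60 markers. Named are all members and some of the 3 genes closest to each in Pearson's r. Rank alone did not decide which of these were printed. Npr2 (r = 0.992 with Irs1) and Heg1 (r = 0.984 with Irs2) were passed over for Meis1 and App. Of the pathway lists, up to 3 called genes per list and comparison with the largest differences are named (a part is printed). Stc1, Pappa2 and Ins2, outside this rule in some or all comparisons, were named after their values were seen. Alternatives were quantile normalization, leaving out dim genes, averaging a gene's probe sets, a block for the replicate number, a trended prior, fitting 2 groups alone and leaving out each replicate.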

Additional observations from a re-analysis of the deposited data

How the results depend on the processing

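The number of members called was 4 in pNSC_L against ESC, 3 or 4 under the 6 settings that keep all arrays of the groups compared, and 2 to 3 when 1 replicate was left out (2 without either ESC replicate). In pNSC_LF against pNSC_L it was 0 (2720 of all genes had an unadjusted p below 0.05 in limma), and 1 with the dimmer 50% of genes left out, with a trended prior, with the replicate block and with all probe sets averaged, Igfbp3 each time. It was 0 to 1 without 1 replicate, where Igf1 was called without pNSC_L replicate 2 (-0.58, adjusted p = 0.046). In dNSC against pNSC_LF the number was 7, or 6 to 9, in dNSC against ESC 9, or 7 to 9, and in dNSC against CNS_NSC 7, or 5 to 7. The 17 neighbouring pairs called became 14 to 18.

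Of 495 recomputed member differences, 22 lost a call, 7 gained one and 0 reversed a call. With only the 2 groups fitted, Igf1 (0.32, adjusted p = 0.011) and Igfbp2 (-0.27, adjusted p = 0.029) became calls in dNSC against pNSC_LF. All genes called fell to 1480 of 2662 in pNSC_L against ESC and to 99 of 355 in pNSC_LF against pNSC_L with only the 2 groups fitted, and ranged from 1102 to 3290 and from 48 to 826 without 1 replicate. Pathway genes called came to 5 of 8 and 0 of 2 in the same fits, and to 4 to 9 and 0 to 2 without 1 replicate. A group with 1 array left was assumed to vary like the others. Same-numbered arrays deviated together (r from 0.14 to 0.37) in all 6 pairs of groups without dNSC and not in the 4 with dNSC (r from -0.11 to 0.09). Since pairing was to be accepted only with r above 0.1 in every pair, the numbers were not taken as pairing. Apart from Igfbp3 the block changed no member call. Only 2 arrays per group and signal near background limit Igf1 and the low groups of Igfbp5.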
